A study of Mus musculus with 12 samples.

Results

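The response of wild-type mouse liver to acetaminophen (APAP) was examined in 6 of the 12 livers of this series, 3 that received APAP and 3 that received saline. The mice were male C57BL6/J animals aged 8 weeks, injected into the peritoneum with 100 mg/kg APAP or with saline, and the livers were taken 8 hours later. The 6 livers were chosen by their titles alone, as wild-type with either agent. In the other 6 livers, labelled liver-null, a conditional Txnrd1 allele was disrupted by Cre under the albumin promoter (albCre), which is active in hepatocytes. Whether the wild-type mice also carried the conditional allele or Cre is not given in the sources used here. A separate Affymetrix array was used for each liver, and livers are named here by agent and by the number that ends their title. Every title also reads "mouse 8" and only the last number tells the livers of a group apart. The series' design text calls the livers of a group biological replicates, so they were taken as separate livers. P-values set a difference against the spread between livers within groups, estimated over all 12 arrays.

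APAP is a painkiller that the liver clears mostly by joining it to glucuronate or sulfate. A smaller part is oxidised by cytochrome P450 enzymes, mainly of pericentral hepatocytes, to a reactive quinone imine. Glutathione captures this product, and when glutathione runs short the quinone imine binds proteins and injures the cell. Stress programmes known to follow APAP injury include NRF2 targets, immediate early genes, heat shock genes and inflammatory genes.

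The authors' table gives log2 expression by probe set, and a difference of 1 on this scale is a 2-fold difference. Upper quartiles lay at 5.49 to 5.58 on 4 of the 12 arrays, among them saline 10 and APAP 14, and 5.73 to 5.85 on the other 8. The labels do not name these 2 sets, and each group holds 1 array of the smaller set, so the set was a term in the fit and does not shift the difference between saline and APAP. No 2 arrays were copies of each other, and correlations between wild-type arrays were 0.989 to 0.997 over all probe sets. Of 10 hepatocyte markers, 9 were on the array, and their mean log2 level lay between 12.62 and 12.72 on the 6 arrays. Markers of lymphocytes and of bile duct cells had mean levels of 2.17 to 2.38 and those of neutrophils and monocytes 2.39 to 2.76. All of these lie below the array medians of 2.91 to 2.99, so values for these cell types rest on little signal. These are whole-tissue samples, in which fewer cells of a type and less RNA per cell cannot be told apart. Txnrd1, the gene targeted in the other 6 livers, read 9.43, 9.58 and 9.81 after saline and 9.76, 9.59 and 9.70 after APAP, with overlapping groups.

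No gene passed the test between APAP and saline in wild-type liver. Of 8469 tested genes, 0 (0%) reached a Benjamini-Hochberg adjusted p under 0.05 in limma with array set in the model, and 0 (0%) without it. The smallest adjusted p was 0.904, or 0.9999 without array set. At an unadjusted p under 0.05, limma counted 434 genes (5.12%) with array set and 143 (1.69%) without it. The 434 genes were 190 with a higher mean after APAP (2.24%) and 244 with a lower mean (2.88%). For 425 genes (5.02%) all 3 arrays of one group lay beyond all 3 of the other, 189 higher (2.23%) and 236 lower (2.79%) after APAP. The smallest p that an exact permutation test of 3 against 3 livers allows is 0.1, so single genes were not tested that way.

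The differences themselves were small. The SD of the log2 difference over the 8469 genes was 0.181, with a median of -0.017. The median size of a difference was 1.07-fold, the 95th percentile 1.27-fold and the 99th percentile 1.49-fold. Past 1.5-fold stood 83 genes (0.98%), 46 higher (0.543%) and 37 lower (0.437%). Past 2-fold stood 18 genes (0.213%), 13 higher (0.154%) and 5 lower (0.059%). The same fit gave the genotype difference between saline livers an SD of 0.346, with 507 genes past 1.5-fold (5.99%) and 155 past 2-fold (1.83%). It called 243 genes there (2.87%), or 54 (0.638%) without array set, so the same model and threshold gave calls for another contrast. That contrast shares the 3 wild-type saline arrays with this one.

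**Figure D1:**
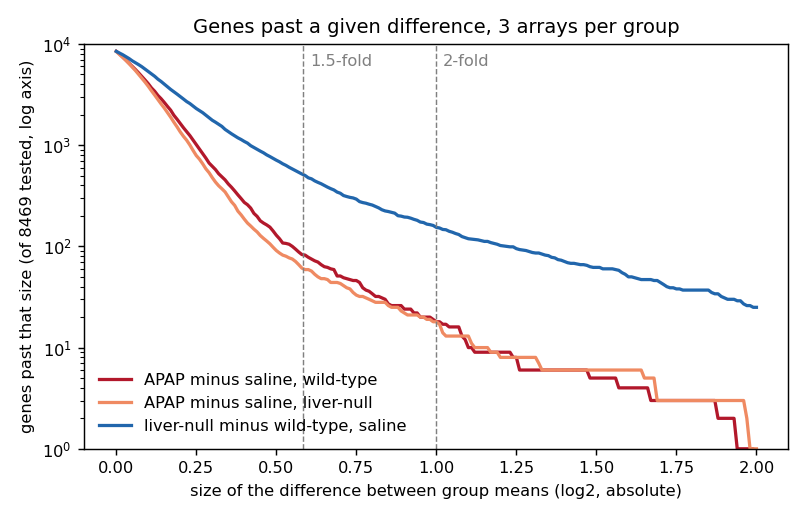
Number of genes (log axis) whose difference between group means exceeds a given absolute log2 size, for APAP minus saline in wild-type livers, APAP minus saline in liver-null livers, and liver-null minus wild-type livers in saline; dashed lines mark 1.5-fold and 2-fold. Both APAP lines pass 2-fold at 18 genes, against 155 genes for the genotype line.

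The fit bounds the response for most genes. The 95% interval of the difference lay wholly within 2-fold in either direction for 8204 genes (96.9%) and wholly within 1.5-fold for 7053 genes (83.3%). The intervals are per gene and carry no adjustment for the number of genes. Each takes its spread from all 4 groups, liver-null livers among them. For 265 genes the interval reached 2-fold or beyond, upward for 156 and downward for 147, and for 37 it reached 4-fold. At the median standard error of 0.126, a gene changing alone would have needed a log2 difference of 1.05 (2.07-fold) to pass the threshold, and 1.77 (3.42-fold) at the 90th percentile of the standard error. Had 100 genes at the median standard error each reached an estimated difference of 0.61 (1.53-fold), they would have passed. All these values are estimated differences at the threshold. Genes whose true change has such a size can be estimated below it and fail to pass. Genes with smaller standard errors needed less, and genes with larger ones more.

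The spread among livers of one group was as large as the difference between the groups. The SD within a group, pooled over saline and APAP, had a median of 0.210 over the tested genes and a 95th percentile of 0.488. This SD includes the shift between array sets. With array set fitted on the 6 arrays, the median residual SD was 0.144. Median SDs were alike in the 2 groups, at 0.191 in saline and 0.200 after APAP. The difference between means exceeded the pooled SD for 1641 genes (19.4%). Of the summed squares of all tested genes over the 6 arrays, 12.9% lay between saline and APAP, 46.5% between the array sets and 40.6% elsewhere. The last share has 3 degrees of freedom, or 13.5% for each, so treatment took no more of the variation than one further direction among livers. Genes of middle level varied most: among genes with mean log2 levels of 3.82 to 6.70 the SD of the difference was 0.211 and the median pooled SD 0.283, against 0.181 and 0.173 among genes above 6.70.

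Pairs of single livers show the same thing. Saline 8 and saline 9, of one group and one array set, differed past 2-fold in 80 genes, and APAP 12 and APAP 13 in 180. The 4 pairs across treatments within the larger array set differed in 55 to 186 genes, and saline 10 and APAP 14, the pair across treatments in the smaller set, in 36, the fewest of all 15 pairs. Pairs from different array sets differed in 93 to 348 genes within a treatment and in 110 to 369 across treatments. In each kind of pair the highest count belonged to a pair that held APAP 12.

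**Figure D2:**
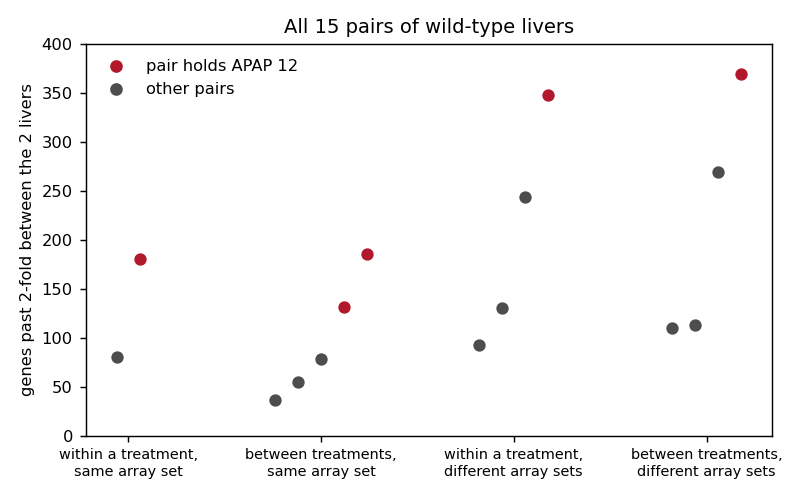
Number of tested genes that differ by more than 2-fold between 2 wild-type livers, for all 15 pairs, grouped by treatment and array set, with pairs that hold APAP 12 in red. Counts across treatments within an array set (36 to 186) overlap those within a treatment (80 and 180), and the highest count of every kind of pair includes APAP 12.

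Of the 10 genes with the largest pooled SD, Lcn2, Saa2 and Orm2 stand on the acute phase list. The acute phase is the change in plasma proteins made by hepatocytes under inflammatory signals. Lcn2, a secreted iron-chelator carrier of the acute phase, had the largest pooled SD: it read 3.89, 10.49 and 6.03 after saline and 11.79, 4.49 and 10.11 after APAP. Both groups thus held low and high livers, and the mean difference of 2.00 (SE 1.95) was near its standard error. Saa2, a serum amyloid, read 9.03, 10.95 and 10.003 after saline and 12.999, 7.45 and 11.06 after APAP. Orm2, an acid glycoprotein, read 3.81, 6.15 and 5.05 after saline and 9.13, 4.11 and 6.48 after APAP. APAP 12 was the highest and APAP 13 among the 2 lowest livers for all 3 genes.

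Mt1 and Mt2, metallothioneins that bind zinc and are made in the acute phase, also varied widely. Mt1 read 7.95, 10.54 and 9.55 after saline and 12.02, 8.91 and 10.35 after APAP. Mt2 read 7.28, 10.06 and 9.52 after saline and 10.65, 6.33 and 9.19 after APAP, so the 2 genes had mean differences of opposite sign (1.08, SE 0.81, and -0.23, SE 1.10). Each was highest on APAP 12 and second highest on saline 9. Mt2 was also among the 10 genes of largest pooled SD and Mt1 was not. The others were Prtn3, Cbr3, Cyp26a1, Tifa, Bcl6 and Tff3. Prtn3, a protease of neutrophil granules, read 7.74 on APAP 12 and 1.86 to 2.26 on the other 5 arrays. Cyp26a1, which degrades retinoic acid, read 8.96 on saline 8 and 3.85 to 6.53 elsewhere, and Bcl6, a transcriptional repressor, read 7.64 on APAP 14 and 3.73 to 4.59 elsewhere.

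Of 25 tested acute phase genes, 0 passed and 23 had a higher mean after APAP (45% of all tested genes did), with a median log2 difference of 0.198 against -0.017 over all tested genes. Their mean, taken relative to the 6 arrays, was 1.03 on APAP 12, 0.126 on APAP 14 and -0.612 on APAP 13, and -0.453, 0.238 and -0.329 on saline 8, 9 and 10. Without APAP 12 the median was -0.013 and 11 of 25 genes had a higher mean. Neutrophil and monocyte markers also stood highest on APAP 12. Of 8 such markers on the array, 4 passed the filter on low values, and S100a8 read 3.76, 3.64 and 2.63 after saline and 4.83, 3.63 and 3.37 after APAP. The mean of all 8 was 2.40 to 2.44 on the saline arrays and 2.39 to 2.76 on the APAP arrays, with Elane, Mpo, Cxcr2 and Itgam under the filter. The part of these cells in the acute phase values was not tested.

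**Figure D3:**
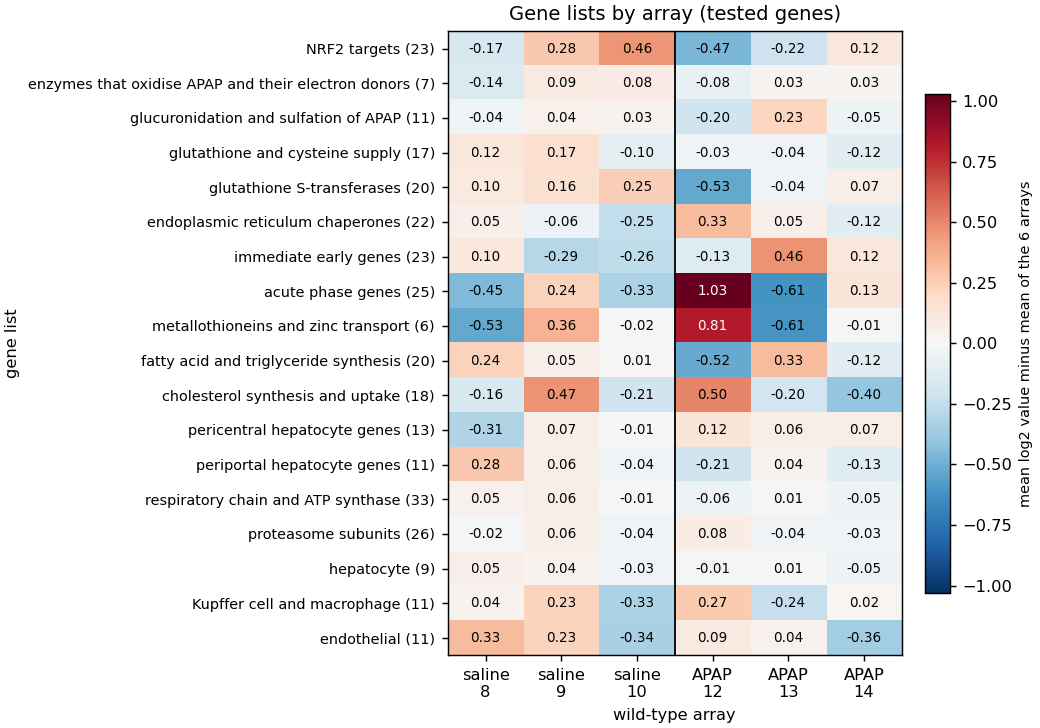
Mean log2 value of each gene list (rows, number of tested genes in brackets) on each wild-type array, relative to the mean of the 6 arrays; blue is lower and red higher. Acute phase genes reach 1.03 on APAP 12 and -0.61 on APAP 13, while proteasome and respiratory chain lists stay within 0.08 of their mean on every array.

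The genes that handle APAP itself read alike in both groups. Cyp2e1, the main oxidising P450 of APAP, read 13.02, 13.19 and 13.13 after saline and 13.12, 13.09 and 13.21 after APAP, a difference of 0.02 with a 95% interval of -0.15 to 0.20. Cyp1a2, another APAP-oxidising P450, read 11.07, 11.46 and 11.55 after saline and 11.09, 11.44 and 11.44 after APAP, with an interval of -0.39 to 0.31. Cyp3a11 read 12.20, 12.15 and 12.19 after saline and 12.33, 12.22 and 12.25 after APAP. These groups did not overlap, but the difference was 0.09 and its interval, -0.08 to 0.26, included 0. Of 7 tested genes of APAP oxidation 0 passed, and all 7 intervals lay within 2-fold. The other tested members were the P450s Cyp3a13 (0.23) and Cyp2d22 (-0.20), and Cyb5a and Cyb5r3, an electron carrier and its reductase.

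Genes of conjugation also had small mean differences, but they varied more among livers (median pooled SD 0.294, against 0.147 for the oxidation genes). Their median difference was -0.037. It was 0.064 with 9 of 11 higher without APAP 12, and -0.165 with 3 of 11 higher without APAP 13. Of 11 tested genes of glucuronidation and sulfation 0 passed, all 11 intervals lay within 2-fold, and the differences ran from -0.21 for Papss2, which makes the sulfate donor, to 0.18 for the sulfotransferase Sult1d1. Of 17 tested genes of glutathione and cysteine supply 0 passed, 4 had a higher mean, and the median difference was -0.107. Gclc, the catalytic subunit of the first enzyme of glutathione synthesis, read 9.81, 10.26 and 10.30 after saline and 9.20, 10.01 and 10.38 after APAP. Gclm, its modifier subunit, read 10.18, 10.50 and 10.33 after saline and 10.60, 10.30 and 10.47 after APAP. Both groups overlapped for both subunits. Cth, which releases cysteine in transsulfuration, was lower on all 3 APAP arrays (10.75 to 11.16 against 11.17 to 11.50), by -0.31 (SE 0.16). Its highest APAP array (11.156) nearly met its lowest saline array (11.165). It was 1 of 17 lower without overlap (2.79% of all tested genes). The 2 members with an unadjusted limma p under 0.05 (5.12% of all) were Cbs (-0.29) and Anpep (-0.34), both with overlapping groups.

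**Figure D4:**
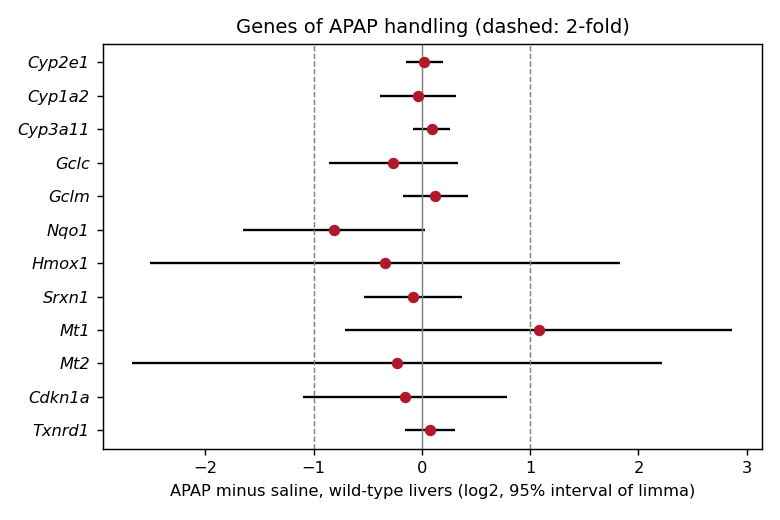
Difference between APAP and saline livers (log2, points) with its 95% interval from limma (bars) for 12 genes of APAP handling and stress; dashed lines mark 2-fold. The intervals of Cyp2e1, Cyp1a2, Cyp3a11, Gclc, Gclm, Srxn1 and Txnrd1 lie within 2-fold, while those of Nqo1, Hmox1, Mt1, Mt2 and Cdkn1a do not. The spread behind each interval is shared by all 4 groups. For Hmox1 the SE is 0.98, although its SD among wild-type livers was 0.123 after saline and 0.388 after APAP.

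NRF2 is a transcription factor that electrophiles release from its inhibitor KEAP1, after which it switches on detoxification genes. Of 23 tested NRF2 targets 0 passed, and 19 had a lower mean after APAP, with a median difference of -0.264 against -0.017 over all tested genes. This was the lowest median among the 29 lists of functions. Past 1.5-fold stood 6 of the 23, all lower. Without APAP 12 the median was -0.162 with 15 of 23 lower, and over the 6 fits that leave out 1 wild-type array it ran from -0.459 to -0.162. Cbr3, a carbonyl reductase, read 2.37, 5.71 and 7.62 after saline and 2.40, 2.23 and 5.27 after APAP. The quinone reductase Nqo1 read 2.88, 4.17 and 4.58 after saline and 2.39, 3.20 and 3.61 after APAP, and both groups overlapped for both genes. Hmox1, which degrades heme, read 4.90 to 5.14 after saline and 4.28 to 5.06 after APAP, and Srxn1, which repairs peroxiredoxins, differed by -0.08 (SE 0.20). Saline 8 was the lowest saline array for both Cbr3 and Nqo1.

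Transferases that attach glutathione to electrophiles (the Gst and Mgst genes) leaned the same way. Of 20 tested members 0 passed, 18 had a lower mean after APAP, and the median was -0.257. Without overlap stood 4 of the 20 (2.79% of all tested genes lay lower without overlap), and 7 had an unadjusted limma p under 0.05 (5.12% of all). Gstm3, a mu class enzyme, read 9.52, 9.69 and 9.98 after saline and 8.40, 8.81 and 9.52 after APAP. Its highest APAP array lay at the lowest saline value to 2 decimals, and the difference was -0.82 (SE 0.23). A second Gstm3 probe set, of lower level (means of 5.12 and 3.54), differed by -1.58. Gsta2, of the alpha class, read 9.86, 9.62 and 10.38 after saline and 7.69, 9.27 and 9.65 after APAP (-1.09, SE 0.36). The microsomal Mgst3 read 6.27, 6.84 and 6.76 after saline and 4.99, 5.97 and 6.09 after APAP (-0.94, SE 0.32). APAP 12 was the lowest array for all 3 genes, and without it the Gsta2 difference was -0.54 and the list's median -0.129. Among other members, Gstp1 differed by -0.06, Gsta3 by -0.06, Mgst1 by -0.017 and Gstm1 by -0.28. Probe sets of related transferases can bind each other's transcripts, and Gstm3, Gsta2, Gsta4 and Gstm1 stand on both lists, so the lists are not separate evidence.

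Immediate early genes are transcribed within minutes of a signal and encode mostly transcription factors and feedback inhibitors of MAP kinases. Of 23 tested members 0 passed, 16 had a higher mean after APAP, 5 without overlap (2.23% of all tested genes), and the median was 0.117. Jun, a subunit of the AP-1 transcription factor, read 4.80, 4.17 and 4.36 after saline and 5.79, 6.42 and 5.55 after APAP, with no overlap and a difference of 1.48 (SE 0.44). Its second probe set differed less, by 0.59. Fos, the partner of Jun in AP-1, read 3.83, 2.61 and 2.84 after saline and 3.71, 4.98 and 3.88 after APAP (1.10, SE 0.34). It overlapped through saline 8 and APAP 12, and on saline 9 and 10 it lay below the array medians. Because these 2 members had the lowest unadjusted p of the genes past 2-fold (0.0064 for Jun and 0.0081 for Fos, limma), the 120 bases before each start site in RefSeq are shown (GRCm38.p6, 5′ to 3′ on the gene's strand, with letters matching TGACNTCA or TGACGT on either strand in capitals).
Jun, chr4:95052223-95052342, minus strand: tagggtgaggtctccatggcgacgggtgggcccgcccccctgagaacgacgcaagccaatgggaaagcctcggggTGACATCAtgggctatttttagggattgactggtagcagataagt
Fos, chr12:85473770-85473889, plus strand: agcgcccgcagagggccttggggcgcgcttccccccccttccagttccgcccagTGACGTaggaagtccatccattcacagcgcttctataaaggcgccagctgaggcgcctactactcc
The first motif covers AP-1-like and cAMP response elements of 8 bases and the second the core of the latter, so a full cAMP element matches both. Of 32851 windows of this length, 5.07% hold the first motif and 4.55% the second. A match describes the letters only.

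Zfp36, Dusp1 and Gadd45g, of the same list, also had higher means after APAP. Zfp36, which destabilises cytokine mRNAs, read 7.39, 7.87 and 7.85 after saline and 8.11, 8.95 and 8.57 after APAP, with no overlap (0.84, SE 0.26). Dusp1, a MAP kinase phosphatase, read 9.14, 8.49 and 9.12 after saline and 8.91, 10.65 and 10.15 after APAP (0.99, SE 0.46). Gadd45g, a growth arrest gene, read 3.93 to 4.17 after saline and 5.03, 6.35 and 4.44 after APAP (1.26, SE 0.83). APAP 13 was the highest array for Jun, Fos, Zfp36, Dusp1 and Gadd45g, the liver that was low in acute phase genes. Other members of the list did not share this: Ier2 differed by -0.40, Myc by -0.14 and Junb by -0.05, and Egr1 was under the filter, at 1.65 to 3.90 after saline and 2.03 to 2.40 after APAP. Without APAP 14 the list's median was -0.001.

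**Figure D5:**
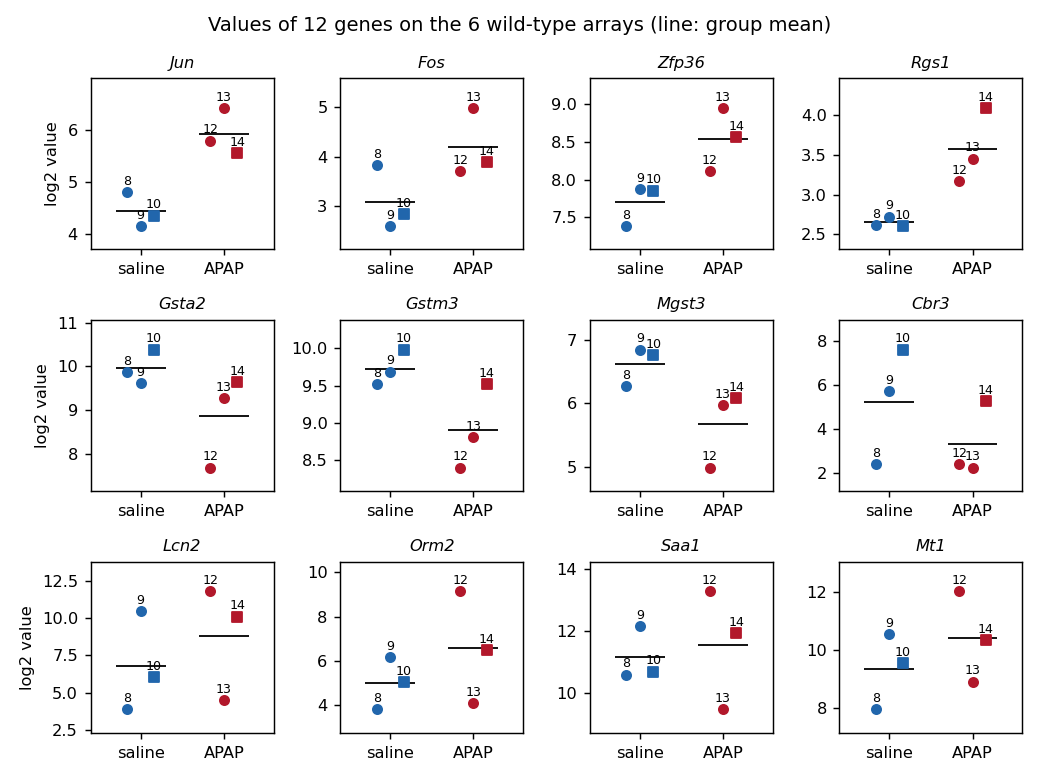
Log2 values of 12 genes, chosen after their values were seen, on the 6 wild-type arrays (blue saline, red APAP; squares are the arrays of the smaller set; numbers name the livers; lines are group means). Jun, Zfp36 and Rgs1 separate the groups upward and Mgst3 downward, Gstm3 does so by under 0.01, and Lcn2, Orm2, Saa1 and Mt1 are highest on APAP 12 with overlapping groups.

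Other stress programmes also had 0 genes past the threshold. Of 22 tested chaperones and quality control genes of the endoplasmic reticulum, 0 passed and 20 had a higher mean. Without overlap stood 4 of the 22, all higher (2.23% of all tested genes lay higher without overlap). The median was 0.196, and over the 6 fits that leave out 1 wild-type array it ran from 0.096, without APAP 12, to 0.217. Dnajb9, a cofactor of the chaperone BiP, read 8.91, 9.07 and 9.24 after saline and 9.79, 9.73 and 9.36 after APAP (0.55, SE 0.16), and BiP itself (Hspa5) differed by 0.20. All but 3 of the 22 intervals lay within 2-fold. Of 16 tested genes of the integrated stress response 0 passed and the median was 0.071, or -0.005 without APAP 12 and -0.062 without APAP 14. Its members Fgf21 (0.76, SE 0.92) and Asns (-0.53, SE 0.91) varied widely among livers. Atf3, a stress-induced repressor, was under the filter, at 1.95 to 2.44 after saline and 2.20 to 2.30 after APAP. Of 18 heat shock genes 0 passed with a median of -0.020. Hspb1, a small heat shock protein, was lower on all APAP arrays (4.64 to 5.33 against 5.35 to 6.31), by -0.93 (SE 0.47). Dnajb4 had a higher mean (0.42, SE 0.13), but its lowest APAP array and its highest saline array both read 6.78 to 2 decimals. Of 11 p53 targets and 14 cell cycle genes 0 passed, with medians of 0.053 and -0.017. Cdkn1a, a p53-induced inhibitor of the cell cycle, read 2.43 to 2.77 after saline and 2.08 to 2.95 after APAP.

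Metabolic lists likewise had 0 genes past the threshold. Fatty acid and triglyceride synthesis had a median of -0.194 over 20 genes, 18 of them lower, but -0.010 with 11 of 20 lower without APAP 12. Lpin1, a phosphatidate phosphatase, read 9.07, 9.02 and 9.18 after saline and 7.15, 9.49 and 8.34 after APAP, and Thrsp, a lipogenic regulator, 12.40, 11.97 and 12.24 against 10.73, 12.46 and 11.92. In both, APAP 12 was low and APAP 13 was above every saline array. Cholesterol genes had a median of -0.033 over 18 genes, but -0.226 with 0 of 18 higher without APAP 12, -0.221 with 0 of 18 higher without saline 8 and 0.134 with 12 of 18 higher without saline 9. Medians were 0.082 over 25 genes of fatty acid oxidation, -0.011 over 21 bile acid genes and 0.013 over 17 clock genes. Igfbp1, an IGF-binding protein that insulin represses, read 6.91, 7.06 and 4.98 after saline and 7.64, 7.75 and 7.29 after APAP (1.24, SE 0.47), and Irs1, an insulin receptor substrate, 4.64, 5.12 and 4.76 against 5.46, 5.43 and 5.18 (0.52, SE 0.14). Neither pair of groups overlapped. G6pc, the last enzyme of glucose output, differed by 0.77 (SE 0.40). The list of glucose output, glycogen and insulin response had a median of 0.077 over 18 genes, 13 of them higher. Its differences ran from -0.57 to 1.24. Without overlap stood 4 higher and 1 lower (2.23% and 2.79% of all tested genes). Respiratory chain genes had a median of -0.068 over 33 genes, with 2 of 33 higher. Of these 33, 4 lay lower without overlap (2.79% of all tested genes did). Proteasome subunits had a median of 0.006 over 26, with 15 of 26 higher. Every interval in both lists lay within 2-fold.

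Zonation was followed because APAP is oxidised in pericentral cells. Of 13 tested pericentral genes 0 passed, with a median of 0.111, and of 11 periportal genes 0 passed, with a median of -0.119. The pericentral median was -0.015 without saline 8. Aldh1b1, a mitochondrial aldehyde dehydrogenase on the periportal list, read 8.28, 6.91 and 6.65 after saline and 5.86, 6.69 and 6.19 after APAP (-1.03, SE 0.41), and -0.54 without saline 8. Hal, a histidine-degrading enzyme, differed by -0.49 (SE 0.19). Ahr, the receptor for dioxin-like compounds, read 7.23, 7.45 and 7.87 after saline and 8.43, 7.98 and 8.05 after APAP, with no overlap (0.64, SE 0.24).

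Inflammatory and non-hepatocyte genes showed no group difference past the threshold. Of 13 tested chemokines and inflammatory mediators 0 passed. Il1b, a cytokine of macrophages, read 3.27, 3.17 and 3.69 after saline and 3.49, 3.68 and 4.20 after APAP (0.41, SE 0.10), near the array medians, and overlapped. Cxcl1, a neutrophil attractant, read 9.40 on APAP 12 and 6.64 to 7.58 on the other arrays. All 11 Kupffer cell and macrophage markers on the array exceeded the filter and 0 passed the test, with a median of 0.049 and differences of -0.08 to 0.18. A single array turned this list: the median was 0.307 with 11 of 11 higher without APAP 13, and -0.201 with 1 of 11 higher without APAP 14. Their mean was lowest on saline 10 and highest on APAP 12. Endothelial markers had a median of -0.201 over 11 genes, 9 lower, and stellate cell and fibroblast markers of -0.166 over 10, 9 lower. In both lists the means were higher on saline 8 and 9 than on APAP 12 to 14. Saline 10 was lower than APAP 12 and 13, which are of the other array set. Beside APAP 14, of its own set, saline 10 differed little (-0.336 against -0.36 for endothelial and -0.168 against -0.202 for stellate markers, relative to the 6 arrays). Of 20 interferon-stimulated genes 0 passed, and all 20 intervals lay within 2-fold. Lists not described above also had 0 genes past the threshold: peroxide and thiol reductases (18 genes, median -0.039), metallothioneins and zinc transport (6, 0.018), glucocorticoid-responsive genes (13, 0.028), CAR, PXR and AHR with their targets (15, -0.012) and male-biased liver genes (8, 0.026).

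Of the 20 genes with the smallest unadjusted p, 10 in each direction, 15 separated the groups; 5.02% of all tested genes did so, and both measures come from the same contrast. Highest in rank was Rgs1, a regulator of G-protein signalling best known from leukocytes, which read 2.62, 2.72 and 2.61 after saline and 3.17, 3.46 and 4.09 after APAP (0.92, SE 0.17). Its saline values lay below the array medians, so the difference starts from little signal. The other genes with a higher mean were Nfxl1, Ifrd1, Il1b, Tmem39a, Tgds, Irs1, Azi2, Dnajb9 and Zfx, with differences of 0.27 to 0.84. Ifrd1, a transcriptional coregulator, read 6.30, 6.10 and 6.34 after saline and 6.84, 7.26 and 6.59 after APAP. Genes with a lower mean were Rdh11, Septin4, Pdlim1, Naalad2, Ptpn5, Nudt22, H2aj, Acox2, Gstm3 and Cyp2c55, with differences of -0.31 to -0.82. Rdh11, a retinal reductase, read 6.50, 6.53 and 5.96 after saline and 5.78, 5.75 and 5.14 after APAP (-0.77, SE 0.15), and its second probe set differed by -0.29. Acox2, a bile acid side-chain oxidase, read 9.80, 9.49 and 9.63 after saline and 9.12, 9.36 and 9.28 after APAP. Septin4, a cytoskeletal GTPase, differed by -0.48 (SE 0.10) and its second probe set by -0.11.

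The 18 genes past 2-fold were named after their values were seen. They were chosen for passing that size on these arrays, so genes near it can fall under it when any array is left out. For 5 of the 18 the groups did not overlap (5.02% of all tested genes). The 13 with a higher mean were Lcn2, Prtn3, Dnajc12, Orm2, Jun, Gadd45g, Cxcl14, Igfbp1, Lipg, Fos, Mt1, Bcl6 and Tifa, and the 5 with a lower mean were Cbr3, Clec2h, Gsta2, Cyp26a1 and Aldh1b1. Only Jun and Cbr3 stayed past 2-fold in all 6 fits that left out 1 wild-type array. Cbr3 had overlapping groups and was at -1.01 without saline 10. On saline 8, APAP 12 and APAP 13 it lay below the array medians, so its difference rests partly on little signal. Without APAP 12, 11 of the 18 were under 2-fold and 1 of them, Tifa, changed sign. Prtn3 was at 0.009 and Orm2 at 0.28 in that fit. Over the 6 fits Igfbp1 stayed at 0.843 to 1.438 and Clec2h at -1.247 to -0.853. Dnajc12, a J-domain cochaperone, read 6.65, 6.50 and 6.41 after saline and 10.20, 6.92 and 7.44 after APAP, and its difference of 1.67 (SE 0.61) was 0.69 without APAP 12. The chemokine Cxcl14 read 6.95 on APAP 12 and 3.11 to 3.94 elsewhere. Lipg, an endothelial lipase, read 3.67 to 3.95 after saline and 3.69, 5.90 and 5.24 after APAP. Clec2h, a lectin-like receptor, read 4.44, 4.91 and 4.47 after saline and 3.08, 3.82 and 3.63 after APAP (-1.10, SE 0.39), with no overlap. Its other probe sets differed less, by -0.75 and -0.32.

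The livers labelled liver-null gave a second comparison of APAP with saline that shares no array with the first. It called 0 of 8469 genes (0%), with 60 past 1.5-fold (0.708%), 18 past 2-fold (0.213%) and an SD of 0.169. The difference between the 2 responses, tested as an interaction in the same fit, passed for 0 genes (0%), with 326 at an unadjusted limma p under 0.05 (3.85%; 109, or 1.29%, without array set) and a smallest adjusted p of 0.959. Across the 8469 genes, which are not independent replicates, the 2 sets of log2 differences had Pearson r = -0.121 and Spearman rho = -0.042. Of the 434 genes above, 50.7% had the same sign in liver-null livers, against 49.2% of all tested genes. Jun was higher in both (1.48 and 1.19), while Fos differed by 0.006, Zfp36 by 0.47, Gstm3 by -0.12 and Gsta2 by 0.005 in liver-null livers. The liver-null means of Fos were 2.74 after either agent, below the array medians, so its difference in these livers rests on little signal. Orm2 and Igfbp1 leaned the other way there (-2.77 and -0.97), and their interaction did not pass after adjustment (adjusted p of 0.959 or above, limma). Nothing in these fits marks a response as particular to wild-type livers.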

How the data were processed

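Liver RNA was labelled as biotin cRNA in 1 cycle, per the labels' protocols. The authors deposited log2 values per probe set made with RMA, per the submitters' processing notes. For RMA, no version or software is given in the sources used here. Values for 22690 probe sets came without detection calls, and precision is limited by the number of arrays.

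Gene names are those of the platform annotation, which can be old: 20380 had 1 symbol, 691 several, 1555 none, and 64 were controls. For each of 12393 genes the brightest probe set was kept, and 8469 genes above the 40th percentile on 3 or more of the 12 arrays were tested.

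The fit was made in R 4.3.3 using limma 3.58.1 (lmFit, eBayes) over all 12 arrays, with a mean for each of 4 groups and the array set, cut at the largest gap in upper quartile, leaving 7 residual and 3.55 prior degrees of freedom. P-values were adjusted by Benjamini-Hochberg over all tested genes, two-sided. SE is that of a fitted log2 difference. The fit was tested on simulated data.

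Named genes were Txnrd1, 12 core genes of APAP handling, the 10 genes of smallest p in each direction (none passed), per list the 2 members with the largest difference, and the 10 of largest pooled SD; other genes were named after their values were seen. The comparison, the lists and the array set were chosen with earlier results of these data known. Lists have no set test. Promoter windows come from RefSeq.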

Additional observations from a re-analysis of the deposited data

How the results depend on the processing

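The count of genes past the adjusted threshold stayed at 0 in limma under all 18 alternatives, 6 of which left out 1 wild-type array (range 0 to 0), with 143 to 789 genes at an unadjusted p under 0.05. The smallest adjusted p over these fits was 0.101, without APAP 13. The interaction count was 0 with and without array set.

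The count past 1.5-fold, 83, was 175 with only the arrays of the larger set and 131 with every probe set tested on its own (14324 features), and ran from 69 to 184 when 1 wild-type array was left out. The count past 2-fold, 18, was 32 with only the larger set and ran from 20 to 38 when 1 array was left out. It was 15 with the stricter filter (60th percentile), 15 with the mean of probe sets and 12 with array weights. The SD of the differences ran from 0.158 with no filter to 0.233 without APAP 13. Means of fewer arrays vary more, so larger counts under fewer arrays follow from the construction.

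Among 112 named genes, 1992 values under alternatives were computed. Of these, 17 moved by more than the pooled SD of the gene, 40 changed sign and 0 passed the threshold. The list medians without each wild-type array were added after seeing the data, and in at least 1 such fit the median changed sign for 18 of 29 function lists and 3 of 9 marker lists. Beside those given above, the glucose and insulin list (0.077) was at -0.022 and the p53 list (0.053) at -0.018 without APAP 13, and the interferon list (-0.048) at 0.075 without APAP 12.

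No paired analysis was possible because no replicate number is shared between groups. The labels do not say what set the 2 array sets apart.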
